A study of Mus musculus with 16 samples.

Results

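Lymph nodes draining a live MC38 tumor were compared with nodes of naive mice, by droplet single-cell RNA sequencing of stroma-enriched suspensions. The comparison covered 3 live draining libraries (A to C) and 4 naive libraries (A to D), taken by their titles from 16 libraries of the series. Cells entered with between 200 and 6000 genes detected and no more than 30% of their UMIs (unique molecular identifiers, here molecules counted per cell) from mitochondrial genes. Of the 50386 cells of the series that met these limits, 28277 belonged to these libraries, of which 13700 were live draining cells (5132, 4848 and 3720 per library) and 14577 were naive cells (4806, 3238, 3356 and 3177).

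All mice were described as C57Bl/6, sex-matched and 8 weeks old. MC38 is a mouse colon carcinoma line of the same strain background. Tumor-bearing mice received 500000 live cells subcutaneously in the lower right flank, and the draining inguinal nodes were taken on day 12. Naive nodes were titled only as such, every library of the series, naive ones included, carries MC38 as its cell line label, and the number and handling of the naive mice are not given in the sources used here. Where libraries do not come from separate mice, the p-values below measure only the spread between libraries. All suspensions were digested and positively selected with an antibody to podoplanin (PDPN, a glycoprotein of fibroblastic reticular cells and lymphatic endothelium), so a share of cells is a share of an enriched suspension and not of the node.

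A lymph node is built on stroma. Fibroblastic reticular cells (FRCs) make the fiber network and secrete the chemokines that place lymphocytes, lymphatic endothelial cells (LECs) line the sinuses through which lymph from the tissue enters, and blood endothelial cells (BECs) with their pericytes form the vessels. Dendritic cells (DCs) carry antigen into the node through the lymph, B cells that respond divide in follicles and become plasma cells, and sinus macrophages capture particles from the lymph.

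Each cell was assigned to a lineage by marker gates. A gate held 6 genes for each of 16 lineages, and a cell needed at least 2 of them and more than of any other lineage. The check of the gates used 3 further genes per lineage: at least 1 was detected in 90.9% of fibroblastic cells against 19.0% of other gated cells, in 79.6% against 12.9% for LECs, in 92.1% against 7.75% for B cells and in 84.0% against 3.46% for T cells. The check separated some gates less, such as pericytes (70.2% against 32.7%), conventional DCs (90.4% against 36.8%) and plasma cells (90.7% against 59.3%). Another 19.4% of live draining and 18.9% of naive cells met no gate. A further 1.21% and 1.00% carried 4 or more markers of both an immune and a stromal lineage. Stromal cells with fewer immune markers were more common. Leaving out those with 2 or more, as done below, kept 64.7% of live draining and 77.5% of naive fibroblastic cells.

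Median depth overlapped between the groups, at 4029 to 4192 UMIs per cell in live draining libraries and 3421 to 4810 in naive libraries. The share of barcodes over the mitochondrial limit did not overlap: 26.3% to 32.8% of live draining barcodes were lost there against 14.3% to 18.6% of naive ones. Among barcodes gated as fibroblastic the loss was 21.5% (live draining) against 5.12% (naive), among migratory DCs 17.8% against 8.42%, and among LECs 5.06% against 2.4%. Pairs of these libraries shared 1 to 8 kept barcodes. The part of this loss in the results below was not tested, apart from counts repeated at a limit of 10%, which are given among the alternatives.

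The composition of the tumor-draining suspensions moved toward B cells, plasma cells and monocytic cells, and away from DCs, T cells and vascular cells. Of 17 lineage shares tested, 12 passed an adjusted p of 0.05 (70.6%; edgeR quasi-likelihood test on cell numbers). Because these are shares of 1 total, a rise in 1 lineage lowers the others, and the exact permutation test of 3 against 4 libraries cannot give a two-sided p below 0.057. Immune cells together were 32.5% of live draining and 34.3% of naive cells, and stromal cells together 46.9% and 45.8%.

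B cells made up 13.7%, 12.4% and 15.4% of the live draining libraries and 5.81%, 7.04%, 5.99% and 7.24% of the naive libraries. Every live draining library was above every naive library, at 13.8% ± 1.47 (SD, n = 3) against 6.52% ± 0.726 (n = 4; adjusted p = 9.1e-15, edgeR). Plasma cells, which secrete antibody, were 1.62% ± 0.391 against 0.449% ± 0.105 (adjusted p = 6.9e-11). Macrophages rose from 2.46% ± 0.423 to 3.94% ± 0.309 (adjusted p = 3.5e-06) and monocytes from 1.90% ± 0.236 to 3.61% ± 0.343 (adjusted p = 4.1e-09). Among immune cells alone, B cells were 42.5% ± 1.97 of the live draining and 19.0% ± 1.11 of the naive cells.

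Migratory DCs, the mature Ccr7-bearing cells that arrive with the lymph, were 4.97%, 4.76% and 4.65% in live draining libraries and 11.9%, 12.2%, 10.6% and 12.7% in naive libraries. The ratio of the mean shares was 0.404, without overlap (adjusted p = 1.6e-17), and among immune cells it was 14.8% ± 1.20 against 34.6% ± 1.39. Conventional DCs (2.25% ± 0.253 against 4.83% ± 0.333), T cells (1.63% ± 0.135 against 3.79% ± 0.475) and mast cells (0.395% ± 0.0204 against 1.73% ± 0.163) were lower as well. NK cells were 0.268% ± 0.0361 against 0.539% ± 0.175 (adjusted p = 0.0019). Plasmacytoid DCs rested on 3 live draining and 11 naive cells (adjusted p = 0.050) and neutrophils on 20 and 14 cells (adjusted p = 0.26).

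BECs fell from 1.80% ± 0.743 to 0.472% ± 0.0483 and pericytes from 1.71% ± 0.540 to 0.414% ± 0.0888 (adjusted p = 1.3e-10 and 2.0e-11). Naive library A held the largest share of BECs (2.91%) and of pericytes (2.50%). Without it the log2 differences were -1.59 for BECs and -1.79 for pericytes, and both calls held. LECs were 17.1% ± 0.467 against 17.8% ± 0.568 (adjusted p = 0.42). Fibroblastic cells were 28.9% ± 1.03 against 24.5% ± 1.44 (adjusted p = 0.0024), but without cells that also carried 2 or more markers of an immune lineage their log2 difference was 0.12 and no longer passed (adjusted p = 0.13).

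**Figure D1:**
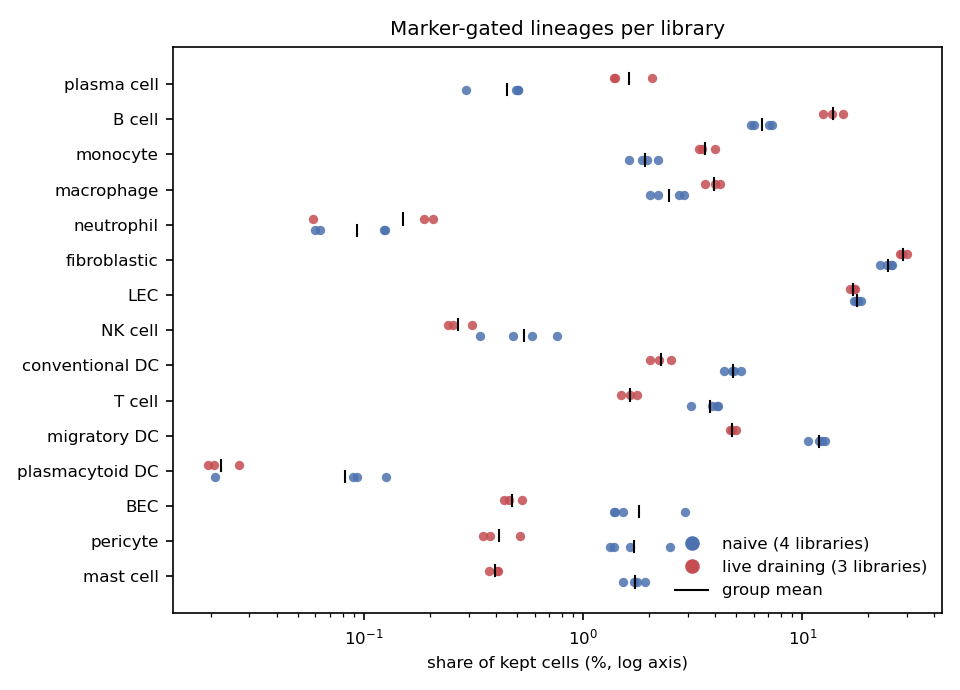
Share of kept cells per library (x axis, percent, logarithmic) for 15 marker-gated lineages (y axis), with 1 point per library and a bar at the group mean. The 3 live draining libraries lie above all 4 naive libraries for plasma cells, B cells, monocytes, macrophages and fibroblastic cells, and below them for migratory DCs, conventional DCs, T cells, NK cells, BECs, pericytes and mast cells.

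Gene changes were tested on UMIs summed per library and lineage, with the library as replicate. Values are UMIs of a gene per 1000000 UMIs of that lineage (CPM, TMM-normalised), and differences are live draining minus naive on the log2 scale. The median difference over all genes tested lay between -0.02 and 0.01 in each of the 8 lineages with at least 20 cells in every library.

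LECs changed at 5373 of 14164 genes tested (37.9%), 2813 higher (19.9%) and 2560 lower (18.1%), with chemokines among the largest rises. Cxcl9 (ENSMUSG00000029417.9, mm10 chr5:92321347-92328079) is a ligand of Cxcr3, a chemokine receptor carried by T and NK cells. Cxcl9 measured 1781, 1889 and 1851 CPM in the live draining libraries and 42.7, 23.6, 27.9 and 10.4 CPM in the naive libraries. No libraries overlapped, and the fitted fold was 67.7 (log2 6.08 ± 0.26, SE; adjusted p = 1.2e-14). Ccl20 (chr1:83116766-83119167), which attracts Ccr6-bearing cells, rose from 74.3 to 194 CPM over the naive libraries to 2523 to 2966 CPM over the live draining ones (log2 4.20 ± 0.17; adjusted p = 8.9e-15). Cxcl10 (chr5:92346638-92348889), another Cxcr3 ligand, rose from 158 ± 39.9 to 995 ± 64.5 CPM (SD; log2 2.66 ± 0.20; adjusted p = 1.9e-10).

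Only part of this rise remained once immune-marked LECs were left out. Cells with 2 or more markers of an immune lineage were left out, which kept 54.0% of live draining and 65.4% of naive LECs. The kept cells could still carry a single marker of an immune lineage. The cells left out were deep, with a median of 15180 UMIs (live draining) and 12550 (naive) against 6045 and 6621 in the cells kept. In the kept cells Cxcl9 was higher by 3.85 (adjusted p = 5.4e-08) and Ccl20 by 3.05 (adjusted p = 1.1e-09), whereas Cxcl10 was higher by 0.77 and no longer called (adjusted p = 0.096). Over all LECs, the 7 B cell markers tested were all higher too, at a summed 42.8 against 18.0 CPM. Of 8 migratory DC markers 4 were higher and 1 lower (824 against 440 CPM for the list), and 5 of 7 mast cell markers were lower. The part of such transcripts in the changes of LECs was not tested beyond leaving out immune-marked cells.

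The promoters of these 3 chemokines are shown as those of the rises described above, and that of Gbp2, an interferon-induced GTPase described below, as an example of its list. They run 5′ to 3′ on the gene's strand, from 250 bases before the start site to 50 bases after it (RefSeq, GRCm38.p6). Capitals mark matches on either strand to the interferon-stimulated response element (ISRE, GAAANNGAAA), the gamma-activated site (GAS, TTCNNNGAA) or the kappaB site (GGGNNNTTCC), and N is any base.
Cxcl9, minus strand, chr5:92328030-92328329: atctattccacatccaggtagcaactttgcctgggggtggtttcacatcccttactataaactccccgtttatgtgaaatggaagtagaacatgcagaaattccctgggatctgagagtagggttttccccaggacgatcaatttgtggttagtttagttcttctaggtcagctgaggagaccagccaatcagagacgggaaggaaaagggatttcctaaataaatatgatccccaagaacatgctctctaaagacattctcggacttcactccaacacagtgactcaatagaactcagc
Cxcl10, minus strand, chr5:92348840-92349139: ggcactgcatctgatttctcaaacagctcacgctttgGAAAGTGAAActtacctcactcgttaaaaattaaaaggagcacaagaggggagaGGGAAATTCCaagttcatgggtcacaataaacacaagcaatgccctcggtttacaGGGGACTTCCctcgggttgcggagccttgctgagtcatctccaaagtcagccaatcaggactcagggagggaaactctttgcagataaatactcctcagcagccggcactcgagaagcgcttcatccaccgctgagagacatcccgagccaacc
Ccl20, plus strand, chr1:83116516-83116815: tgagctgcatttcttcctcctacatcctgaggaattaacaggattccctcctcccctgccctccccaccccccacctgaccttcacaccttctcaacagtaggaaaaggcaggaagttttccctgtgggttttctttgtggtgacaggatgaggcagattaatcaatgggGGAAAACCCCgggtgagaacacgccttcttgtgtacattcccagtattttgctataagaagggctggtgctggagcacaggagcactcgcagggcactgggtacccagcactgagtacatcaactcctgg
Gbp2, plus strand, chr3:142620413-142620712: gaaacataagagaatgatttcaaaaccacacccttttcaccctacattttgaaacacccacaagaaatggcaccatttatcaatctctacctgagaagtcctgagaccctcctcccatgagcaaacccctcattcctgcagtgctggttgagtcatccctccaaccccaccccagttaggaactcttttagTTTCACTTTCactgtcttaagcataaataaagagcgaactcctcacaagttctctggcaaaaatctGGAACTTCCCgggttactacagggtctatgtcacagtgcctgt
The Cxcl10 window held an ISRE match at 213 bases before the start and kappaB matches at 159 and 104 bases before it. Ccl20 held a kappaB match at 80 bases before the start, and Gbp2 an ISRE match at 59 bases before it and a kappaB match just after it. The Cxcl9 window held none of these letters. Over 27025 promoters of this length, 3.49% held the ISRE letters, 8.47% the GAS letters and 5.52% the kappaB letters. Among the 17 MHC class I presentation genes with a promoter in the table, 5 held the ISRE letters (29.4%). The same count is void for antiviral genes, GTPases and regulators, and inflammatory chemokines, of which only 17 of 22, 11 of 21 and 11 of 19 had a promoter in the table.

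Hormone, antimicrobial and acute phase genes of LECs rose with the chemokines. Fgf23, best known as a bone-derived phosphate hormone, was at 123, 144 and 108 CPM against 10.9, 9.42, 3.22 and 1.14 CPM (log2 4.24 ± 0.23; adjusted p = 5.1e-13). Without immune-marked cells it was higher by 3.6 (adjusted p = 2.1e-08). Reg3g, an antimicrobial lectin, rose from 10.1 ± 1.75 to 113 ± 6.0 CPM (log2 3.48). Lcn2, which binds siderophores, rose by 2.58, the protease inhibitors Timp1 by 2.21 and Serpina3n by 1.77, each without overlap. Without immune-marked cells these were 2.69 for Reg3g, 0.97 for Lcn2, 1.20 for Timp1 and 1.30 for Serpina3n, all still called. Over the list of complement and acute phase genes, 11 of 12 tested rose and none fell (median 0.83), and 7 of 12 rose without immune-marked cells.

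Interferon-responsive genes rose across the lists in LECs. Among antiviral genes 22 of 22 rose (median 0.97), and among interferon-gamma induced GTPases and regulators 19 of 20 rose (median 0.90). Zbp1, a nucleic acid sensor, went from 108 ± 7.87 to 321 ± 6.92 CPM (log2 1.57 ± 0.06), Irf7, a transcription factor of the interferon response, from 81.6 ± 10.1 to 221 ± 10.1 CPM (log2 1.43), and Gbp2 from 68.3 ± 7.15 to 185 ± 6.22 CPM (log2 1.43). Without immune-marked cells 9 of 21 antiviral genes (median 0.35) and 10 of 19 GTPases and regulators (median 0.38) were higher and none lower. Zbp1 (1.11) and Irf7 (0.82) were still called there, whereas Gbp2 (0.11, adjusted p = 0.54) and Ifit2 (0.49, adjusted p = 0.18) were not.

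Antigen presentation moved in the same direction by less. Of 19 MHC class I presentation genes 17 rose and none fell (median 0.35). Tap1, the peptide transporter, rose by 0.91 ± 0.06, H2-T22, a class I-like molecule, by 0.69 ± 0.05 and Psmb9, an immunoproteasome subunit, by 0.65 ± 0.06, and each was higher in all 3 live draining libraries than in any naive one. Without immune-marked cells 10 of 19 rose (median 0.22). Of 10 MHC class II genes 9 rose (median 0.65), but in those cells 1 of 7 rose and 1 fell. That gene was Cd74, the invariant chain, which was higher by 0.42 in all LECs and lower by 0.34 without immune-marked cells (adjusted p = 0.014).

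Adhesion and checkpoint genes depended on the same choice. Vcam1 and Icam1, which hold leukocytes to endothelium, were higher by 0.88 and 0.44 in all LECs and lower by 0.23 and 0.14, without a call, once immune-marked cells were left out. Cd274, which encodes the inhibitory ligand PD-L1, was at 129, 134 and 129 CPM against 100, 108, 96.2 and 100 CPM in all LECs (log2 0.37 ± 0.06; adjusted p = 3.0e-05) and was lower by 0.27 in those cells (adjusted p = 0.034). Cd200, which signals to an inhibitory receptor on myeloid cells, rose from 36.9 ± 3.72 to 185 ± 20.1 CPM (log2 2.32 ± 0.08; adjusted p = 1.7e-16) and was still higher by 1.16 in them (adjusted p = 3.4e-09). Il33, an alarmin of the interleukin-1 family, rose by 1.17 in all LECs and by 0.61 in those cells.

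**Figure D2:**
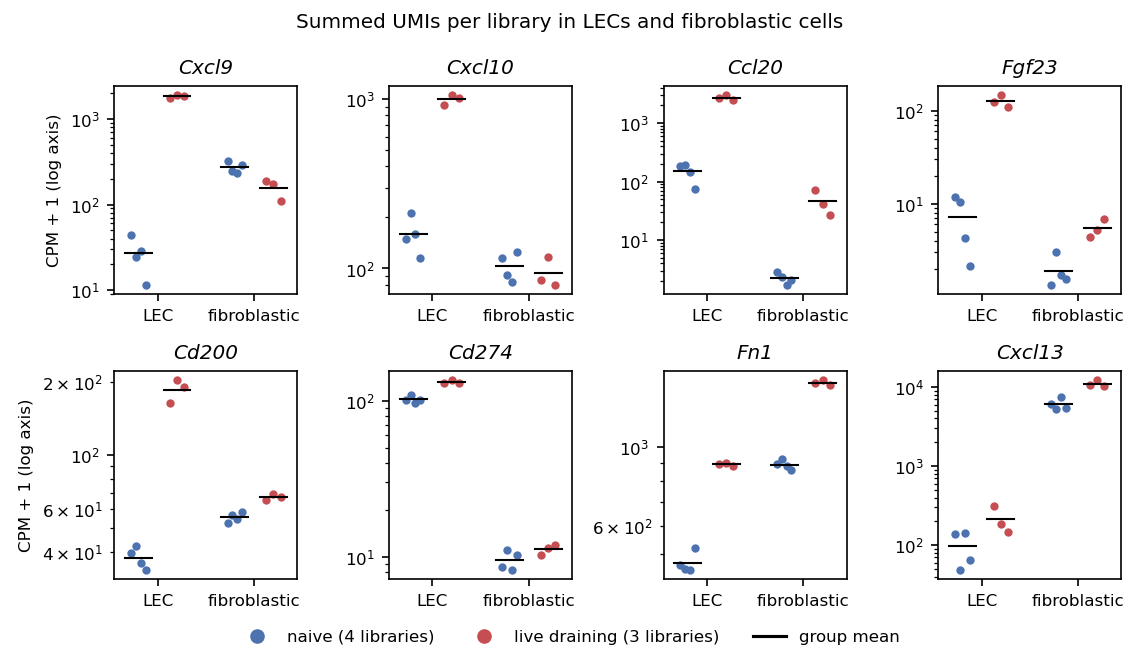
Level of 8 genes (CPM + 1, logarithmic y axis) in LECs and fibroblastic cells of each library, with 1 point per library and a bar at the group mean. Cxcl9 rose from 26.2 to 1840 CPM in LECs and was lower in live draining fibroblastic cells, whereas Ccl20, Fgf23, Cd200 and Fn1 were higher in the live draining libraries of both lineages.

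Metabolic genes rose and stress genes fell in LECs. Of 15 glycolysis genes 14 rose and none fell (median 0.73), with the glucose transporter Slc2a1 at 85.9 ± 5.83 against 27.7 ± 1.29 CPM and the enzymes Gapdh and Ldha higher by 1.05 and 0.91. Of 30 nuclear genes of oxidative phosphorylation 24 rose (median 0.28). Without immune-marked cells 10 of 13 glycolysis genes (median 0.38) and 15 of 30 oxidative phosphorylation genes (median 0.22) rose, and Slc2a1 was higher by 0.55. Of 26 immediate early and dissociation genes, which also respond to tissue digestion, 22 fell and 2 rose (median -0.77). Examples were the heat shock protein Hspb1 (174 ± 25.4 against 660 ± 66.8 CPM; log2 -1.92), the nuclear receptor Nr4a1 (log2 -1.84) and the stress factor Atf3 (log2 -1.61). The genes named here were also called without immune-marked cells.

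Genes of LEC identity split. The fatty acid transporter Cd36, a gene of ceiling LECs, was at 254, 230 and 296 CPM in live draining libraries and 712, 763, 738 and 774 CPM in naive libraries (log2 -1.52 ± 0.08; adjusted p = 1.1e-13). Kitl, the ligand of Kit, fell by 1.37, the lectin Clec4g by 1.62 and the butyrophilin-like Btnl9 by 1.74. Pdpn rose by 0.71 ± 0.05 and the basement membrane chains Col4a1 and Col4a2 rose by 1.01 and 1.19, values that were 0.70, 1.15 and 1.33 without immune-marked cells. Of 18 lymphatic scavenger and identity genes, 17 were tested, 7 rose and 7 fell. Fn1, the matrix glycoprotein fibronectin, rose from 471 ± 32.6 to 892 ± 9.52 CPM (log2 0.92). Mmp9, a gelatinase, was higher by 0.72 in all LECs and lower by 0.90 without immune-marked cells (adjusted p = 0.00010). Mmp9 is itself a neutrophil gate gene, so leaving out immune-marked cells selects against it, and this change of sign is no finding.

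**Figure D3:**
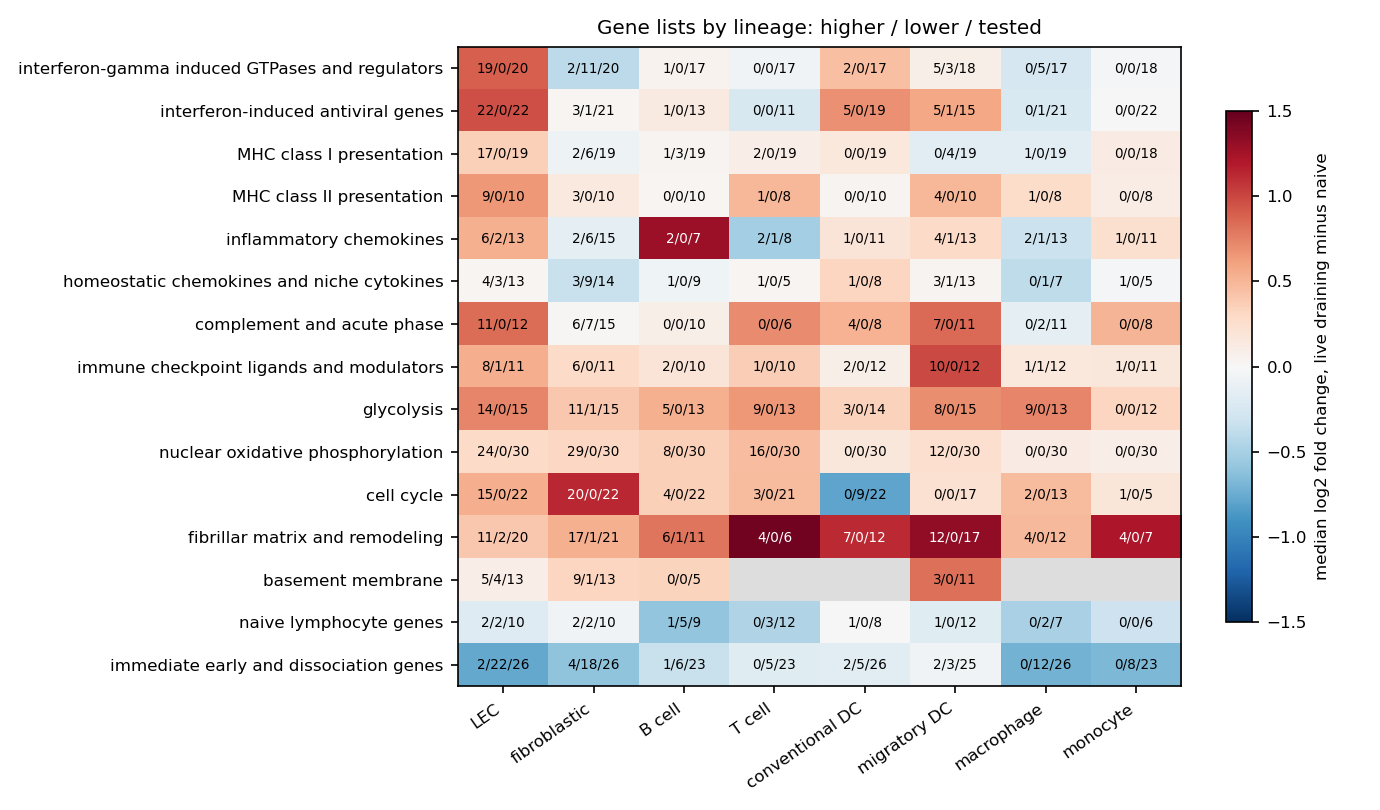
Median log2 difference (colour) of 15 gene lists (rows) in 8 lineages (columns), with the genes higher, lower and tested printed in each field and grey where too few genes were tested. Interferon-responsive lists were higher in LECs (19 of 20 and 22 of 22 genes) and the GTPase list was lower in fibroblastic cells (11 of 20 genes), while immediate early and dissociation genes had negative medians in all 8 lineages.

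LEC subsets differed in how far they changed. Floor LECs (fLECs, the inner wall of the subcapsular sinus) changed at 3172 of 10958 genes (28.9%), ceiling LECs (cLECs, its outer wall) at 2092 of 11816 (17.7%), medullary LECs (MedLECs) at 1118 of 9964 (11.2%) and cortical LECs at 44 of 6139 (0.717%). These counts follow cell number and depth as well, since 1023 cells were gated as fLEC, 1604 as cLEC, 776 as MedLEC and 245 as cortical LEC. For cortical LECs the count ranged from 17 to 45 when a library was left out, with 22 and 26 without naive B and naive D and 17 without live draining C.

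Cxcl9 in fLECs was at 3920, 4093 and 3362 CPM against 48.5, 23.9, 42.7 and 13.5 CPM, a fitted fold of 113. In cLECs it was at 16.4, 21.4 and 82.5 CPM against 2.42, 4.12, 10.6 and 3.58 CPM. The change was larger in fLECs than in cLECs by 4.42 ± 1.04 (adjusted p = 0.023, limma on the within-library difference). Across all genes 544 of 10499 differed this way between the subsets (5.18%), among them 13 of 19 GTPases and regulators, 10 of 13 glycolysis genes and 6 of 20 antiviral genes, all with the more positive change in fLECs. Gbp2 rose by 2.73 in fLECs and was -0.20 in cLECs (difference 2.94 ± 0.32, adjusted p = 1.4e-04, limma). LEC and fibroblastic subsets were tested only with immune-marked cells included. Over all LECs without those cells, Gbp2 was higher by 0.11 (adjusted p = 0.54, edgeR) and 10 of 19 GTPases and regulators were higher.

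Ccl20 was called higher in fLECs, MedLECs and cLECs and was not tested in cortical LECs, where it did not pass the low-count filter. It was at 6903 ± 493 against 532 ± 168 CPM in fLECs, at 433 ± 129 against 16.9 ± 15.3 CPM in MedLECs, and at 29.4, 32.6 and 35.5 CPM in cLECs, where 5 UMIs were counted in all naive libraries together. The live draining mean of cLECs was 0.471% of that in fLECs, no higher than in lineages not known to make it, and the part of free RNA in it was not tested. Within single subsets Cd274 was not called: the log2 difference was 0.21 in fLECs (adjusted p = 0.12), -0.11 in cLECs and 0.17 in MedLECs. In MedLECs 16 of 21 antiviral genes and 17 of 19 GTPases and regulators rose.

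The share of fLECs among LECs was 24.2% ± 1.78 against 17.4% ± 1.15 (adjusted p = 2.6e-06) and that of cLECs 27.7% ± 2.19 against 37.1% ± 2.64 (adjusted p = 6.0e-07). Cortical LECs were 3.76% ± 1.11 against 6.16% ± 0.879 (adjusted p = 1.6e-04), and MedLECs did not pass (15.7% against 15.9%). Genes that gate these subsets moved in LECs as a whole, with Glycam1 and Madcam1 (fLEC gate) higher and Cd36 (cLEC gate) lower. A shift of cells between subsets and a change of the gate genes within cells cannot be told apart here.

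Fibroblastic cells changed at 5627 of 15010 genes (37.5%), 2972 higher (19.8%) and 2655 lower (17.7%), with matrix and division genes among the rises and medullary and homeostatic genes among the falls. All 7 B cell markers tested were higher there too (30.1 against 10.7 CPM summed), as were 4 of 6 monocyte markers (57.5 against 43.6 CPM). Of 8 migratory DC markers 5 were higher and 2 lower (409 against 263 CPM). Markers of some other immune lineages fell, such as 4 of 6 for mast cells (7.81 against 16.2 CPM). The part of such transcripts was not tested beyond leaving out immune-marked cells. The largest fall was Cyp2f2, a cytochrome P450, at 22.3, 18.7 and 20.7 CPM against 124, 110, 108 and 129 CPM (log2 -2.52 ± 0.11; adjusted p = 6.2e-14). Inmt, a methyltransferase and gate gene of medullary reticular cells, fell by 1.68, and the stress factor Atf3 by 1.69. Coch (16.7 ± 6.27 to 65.7 ± 8.55 CPM), the protease inhibitor Serpinb1a (log2 1.68), the interferon-inducible Ifi27l2a (log2 1.66) and Lxn, a carboxypeptidase inhibitor (log2 1.55), were the 4 largest rises of the naming rule, all without overlap. The live draining levels of Coch, Serpinb1a and Ifi27l2a were 7.16%, 10.3% and 6.44% of those in LECs, mast cells and monocytes, and the part of free RNA in them was not tested.

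Matrix genes rose together. Of 21 fibrillar matrix and remodeling genes 17 rose and 1 fell (median 0.53), and of 13 basement membrane genes 9 rose and 1 fell (median 0.32). Sparc, a collagen-binding matricellular protein, was at 4027, 3936 and 4262 CPM against 1800, 1763, 1838 and 1727 CPM (log2 1.19 ± 0.08; adjusted p = 6.2e-11). Timp1 rose from 16.8 ± 3.21 to 45.9 ± 0.821 CPM (log2 1.43), Col3a1, a fibrillar collagen, by 0.89, Col15a1 by 1.31, Nid1 by 0.55 and Fn1 by 0.77 (889 ± 25.8 to 1511 ± 24.6 CPM). Mmp9 rose from 28.4 ± 3.05 to 80.7 ± 11.3 CPM (log2 1.52), and it was higher by 1.08 without immune-marked cells (adjusted p = 4.0e-07). That exclusion selects against Mmp9, which is a neutrophil gate gene. Mmp2, which helped to gate these cells, was at 181 ± 5.29 against 151 ± 6.06 CPM (log2 0.26; adjusted p = 0.024). Its call was lost under DESeq2 (adjusted p = 0.066), with at most 50 cells per library, and without naive B, naive D, live draining A or live draining C (adjusted p = 0.051 to 0.088).

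Chemokines and niche cytokines of fibroblastic cells were mostly lower. Of 14 homeostatic chemokines and niche cytokines 9 fell and 3 rose (median -0.34). Flt3l, a growth factor of DCs, was at 106, 106 and 110 CPM against 188, 199, 203 and 208 CPM (log2 -0.90 ± 0.05; adjusted p = 1.1e-11), Kitl fell by 0.57 and Cxcl12 by 0.53. Cxcl13, which draws B cells into follicles, went the other way, from 6038 ± 974 to 10980 ± 962 CPM (log2 0.86 ± 0.12; adjusted p = 4.7e-06), and Il33 rose by 0.66. Without immune-marked cells Cxcl13 was higher by 0.39 (adjusted p = 0.013). The share of MRCs, which held the most Cxcl13 of the subsets tested, was larger in live draining libraries as given below. Ccl21a, which draws T cells and DCs into the node, was at 9538 ± 796 against 10560 ± 689 CPM and did not pass (adjusted p = 0.18). With only the 7 libraries fitted, Ccl21a passed (-0.15, adjusted p = 0.03, edgeR). Ccl19, which also draws T cells and DCs, was called at -0.45 (adjusted p = 0.016) but was -0.08 without immune-marked cells (adjusted p = 0.73).

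Cxcl9 in fibroblastic cells was at 186, 174 and 109 CPM against 325, 246, 233 and 286 CPM (log2 -0.80 ± 0.16; adjusted p = 3.5e-04). Without immune-marked cells the difference was 0.09 and not called (adjusted p = 0.87). Cxcl10 was at 92.9 ± 19.6 against 103 ± 19.6 CPM (adjusted p = 0.46). Ccl20 was called higher at 46.2 ± 23.4 against 1.25 ± 0.494 CPM, a live draining level of 1.81% of that in LECs, and Fgf23 at 4.48 ± 1.28 against 0.889 ± 0.743 CPM was at 3.56% of it. Both genes were also detected at low levels in most other live draining lineages. Free RNA in droplets can give such levels, and its part was not tested.

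Interferon-gamma induced GTPases and regulators fell in fibroblastic cells, 11 of 20 lower and 2 higher (median -0.39). Gbp7 was at 54.3, 53.7 and 58.2 CPM against 76.8, 81.4, 76.2 and 78.2 CPM (log2 -0.50 ± 0.06), Gbp8 fell by 0.68, Irf1, a transcription factor of the response, by 0.43 and Igtp by 0.53. Without immune-marked cells 7 of 20 fell and 2 rose. Of 19 MHC class I genes 6 fell and 2 rose (median -0.08). Antiviral genes gave 3 higher and 1 lower of 21 (median 0.03), with Irf7 higher by 0.78 (11.6 ± 2.51 to 19.7 ± 0.918 CPM).

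Biosynthetic and stress lists also moved. Of 30 oxidative phosphorylation genes 29 rose (median 0.31, for example Uqcrq by 0.53), of 18 ribosome biogenesis genes 12 rose, and of 19 secretory pathway genes 10 rose, with none lower. Of 15 glycolysis genes 11 rose, among them Ldha by 1.17 (128 ± 3.09 to 289 ± 16.1 CPM), but without immune-marked cells 4 of 14 glycolysis, 15 of 30 oxidative phosphorylation (median 0.18) and 5 of 18 ribosome biogenesis genes (median 0.14) rose. Of 26 immediate early and dissociation genes 18 fell and 4 rose (median -0.61), with the chaperone Hspa1b at 432 ± 47.0 against 1069 ± 74.2 CPM. Complement genes split into 6 higher and 7 lower of 15. C3, the central complement component, fell from 12720 ± 524 to 8127 ± 370 CPM (log2 -0.65), C2 fell by 0.62 and the eosinophil chemokine Ccl11 by 0.59, while Lcn2 rose by 2.77. Cd200 rose by 0.28 (adjusted p = 0.0072) and Cd274 did not pass (10.1 ± 0.791 against 8.50 ± 1.36 CPM; adjusted p = 0.18).

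The difference between fibroblastic cells and LECs of the same library was tested directly. The change differed at 835 of 13363 genes (6.25%), more positive in LECs at 508 and more positive in fibroblastic cells at 327. Both lineages were called at 2943 genes, 1560 higher in both, 1129 lower in both and 254 in opposite directions, of which 216 passed the test of the difference. Both lineages come from the same libraries and share their spread. The change of Cxcl9 was lower by 7.11 ± 0.50 in fibroblastic cells (adjusted p = 3.2e-06, limma), that of Cxcl10 by 2.83 ± 0.40, of Gbp2 by 1.95 ± 0.18 and of Gbp7 by 1.26 ± 0.09. By list, 18 of 20 GTPases and regulators, 17 of 19 MHC class I genes, 8 of 12 complement genes and 8 of 21 antiviral genes differed, all more positive in LECs. The changes of Ccl20 (adjusted p = 0.70), Fn1 (0.51) and Cxcl13 (0.70) did not pass this test, and 1 of 22 cell cycle genes did. The test used all gated cells and was not repeated without immune-marked cells. Without those cells Cxcl9 was higher by 3.85 in LECs and by 0.09, without a call, in fibroblastic cells.

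**Figure D4:**
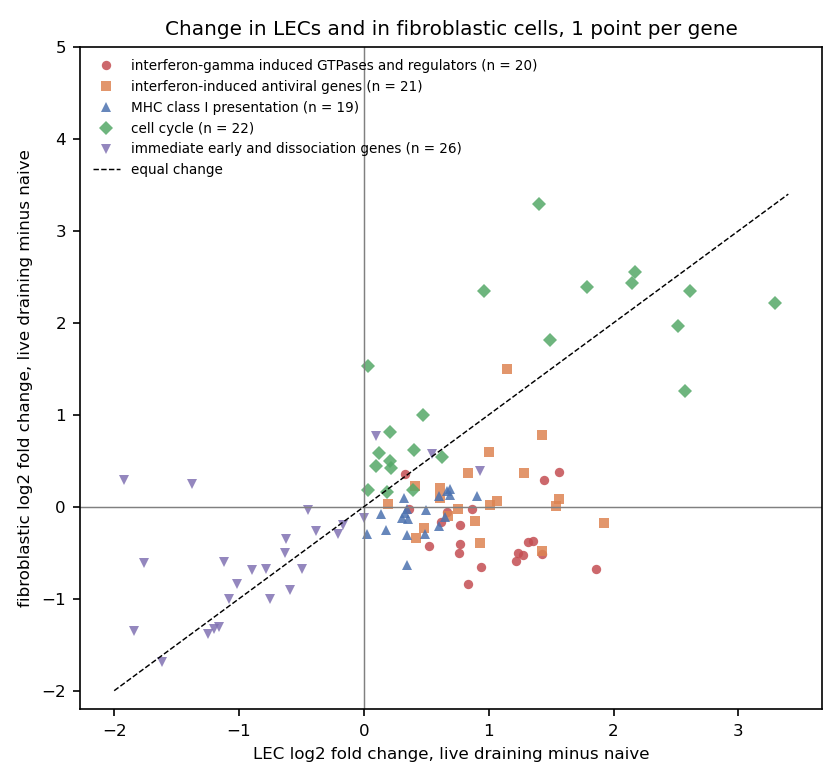
Log2 difference of single genes in LECs (x axis) against that in fibroblastic cells (y axis), live draining minus naive, for 5 gene lists, where the dashed line marks equal change. GTPase and MHC class I genes lie to the right of 0 and near or below 0 on the y axis, cell cycle genes lie above 0 on both axes, and most immediate early genes below 0 on both.

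Each fibroblastic subset was also tested alone. T-zone reticular cells (TRCs) changed at 1854 of 12534 genes (14.8%, 7.85% higher and 6.94% lower), marginal reticular cells (MRCs, beneath the subcapsular sinus) at 1631 of 8968 (18.2%, 9.28% and 8.91%) and medullary reticular cells (MedRCs) at 1230 of 11104 (11.1%, 6.66% and 4.41%). In TRCs 10 of 19 GTPases and regulators and 8 of 19 MHC class I genes fell and none rose, and Cxcl9 was at 213, 267 and 157 CPM against 405, 361, 579 and 451 CPM (log2 -1.07 ± 0.23; adjusted p = 0.0015). In MRCs 8 of 12 homeostatic chemokines and niche cytokines fell and none rose (median -0.95), and 10 of 16 cell cycle genes rose. In MedRCs 13 of 21 fibrillar matrix genes rose and none fell (median 0.68). The TRC count was 1182 without live draining C, the MRC count 1057 without live draining B, and the MedRC count 784 and 768 without live draining B and C.

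Cxcl13 was higher in TRCs and MedRCs and was not called in MRCs, which held the most of it among the subsets tested. In TRCs it was at 3384, 3328 and 4032 CPM against 1462, 1048, 1382 and 916 CPM (log2 1.57 ± 0.16; adjusted p = 4.0e-08), and in MedRCs at 5510 ± 928 against 2310 ± 338 CPM (log2 1.25). In MRCs it was at 28690 ± 1372 against 30660 ± 5091 CPM and did not pass (adjusted p = 0.69). B-zone reticular cells, which the paper identifies by Cxcl13 among other genes, had no gate here and may lie within these subsets. Over the 8 lineages of the main tests, Cxcl13 was called higher in 5 and lower in none. The part of such cells and of free RNA in the TRC and MedRC values was not tested. Ccl19 did not pass in MRCs or MedRCs. Ccl21a did not pass in MedRCs and was at 136 ± 61.6 against 312 ± 154 CPM in MRCs (log2 -1.14; adjusted p = 0.063), where it passed with only the 7 libraries fitted (-1.14, adjusted p = 0.010), without naive B (-1.44, adjusted p = 0.017) and without live draining B (-1.51, adjusted p = 0.049). They are gate genes of TRCs, where their values are no finding. Cells gated as MRC or MedRC had fewer TRC gate genes detected than genes of their own gate. The values of Ccl19 and Ccl21a in these subsets therefore depend on the gate as well.

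Among fibroblastic cells, MRCs were 14.5%, 16.8% and 12.7% of live draining and 6.94%, 6.39%, 7.49% and 5.03% of naive cells (adjusted p = 1.1e-15). MedRCs were 11.9%, 12.9% and 13.1% against 30.4%, 32.9%, 32.5% and 34.1% (adjusted p = 1.7e-24), and perivascular reticular cells (PRCs) 3.65% ± 0.761 against 1.48% ± 0.348 (adjusted p = 2.4e-07). TRCs were 33.0% ± 2.06 against 28.5% ± 2.74 with overlapping libraries (adjusted p = 0.0038). Follicular DCs rested on 50 and 54 cells (adjusted p = 0.33). Fibroblastic cells that met no subset gate were 34.8% ± 0.157 against 29.6% ± 2.91, without overlap (adjusted p = 0.0024, edgeR). The gate genes Inmt and Cxcl12 of MedRCs fell in fibroblastic cells as a whole, so fewer MedRCs and lower gate genes per cell cannot be told apart.

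More stromal cells carried transcripts of division genes. A cell was counted as dividing with 2 or more of 6 division genes detected, and 5.93%, 5.91% and 5.85% of live draining fibroblastic cells met this against 0.833%, 1.21%, 1.05% and 1.03% of naive ones. For LECs the shares were 4.88% ± 1.35 against 1.00% ± 0.502. Neither overlapped, and each exact permutation p was 0.057, the smallest these group sizes can give. In the tests by gene, 20 of 22 cell cycle genes rose in fibroblastic cells (median 1.13) and 15 of 22 in LECs (median 0.55), with none lower. In fibroblastic cells the survivin gene Birc5 rose by 2.35, the kinase gene Cdk1 by 1.26 and the microtubule regulator Stmn1 from 17.2 ± 3.12 to 49.4 ± 2.61 CPM. In LECs Top2a, a topoisomerase of dividing cells, rose by 2.17 and Cdk1 by 2.57.

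Dividing shares were also higher without overlap for B cells (17% ± 0.921 against 7.14% ± 1.68), plasma cells (24.3% ± 7.39 against 4.82% ± 3.26), macrophages (6.65% ± 1.37 against 2.12% ± 1.03) and NK cells (20.7% ± 11.0 against 6.32% ± 4.59, on 7 and 6 dividing cells). Conventional DCs went the other way, at 7.69%, 9.35% and 3.19% against 14.5%, 13.6%, 11.5% and 11.2%. Over all kept cells the share was 7.05% ± 0.399 against 2.44% ± 0.442. T cells, migratory DCs and monocytes overlapped. Cells were not thinned to a common depth for this count.

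**Figure D5:**
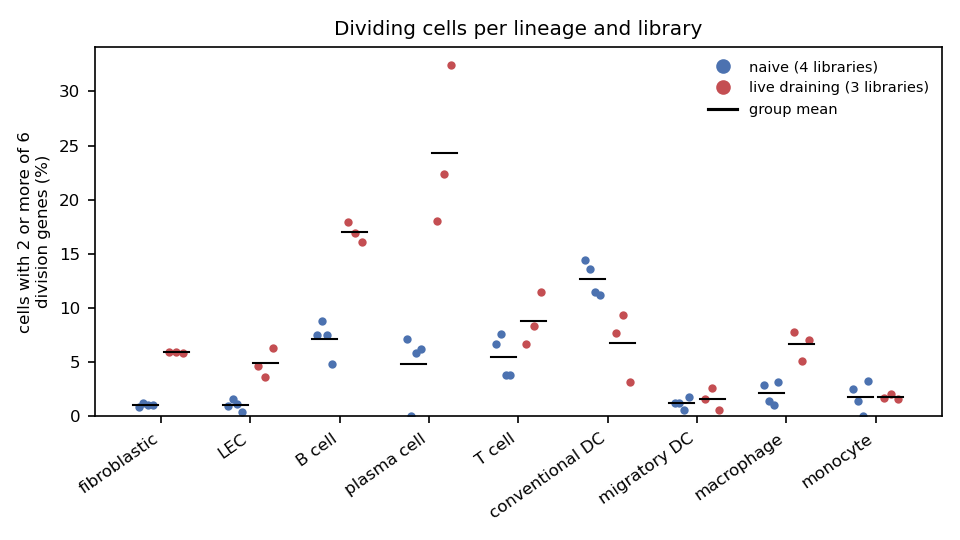
Share of cells with 2 or more of 6 division genes (y axis, percent) per library in 9 lineages, with 1 point per library and a bar at the group mean. Fibroblastic cells, LECs, B cells, plasma cells and macrophages are higher in all 3 live draining libraries, conventional DCs are lower, and T cells, migratory DCs and monocytes overlap.

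B cells changed at 397 of 9056 genes (4.38%), 168 higher (1.86%) and 229 lower (2.53%), with fewer transcripts of the naive state and more of class-switched antibody. Ighd, the IgD constant region that marks B cells before activation, was at 363, 348 and 391 CPM against 740, 722, 776 and 756 CPM (log2 -1.03 ± 0.11; adjusted p = 1.5e-05). The egress receptor S1pr1 fell by 0.59 and the transcription factor Foxp1 by 0.54. Of 9 naive lymphocyte genes tested 5 fell and 1 rose (median -0.59). Ighg1, the IgG1 constant region, rose from 166 ± 134 to 576 ± 69.2 CPM (log2 1.84) and Ighg2b from 140 ± 84.7 to 393 ± 16.8 CPM (log2 1.48). Immunoglobulin genes share sequence, and Ighg1 was also higher in every other lineage where it was tested.

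Mir155hg, the host transcript of miR-155, rose from 17.3 ± 3.31 to 48.1 ± 15.9 CPM (log2 1.44), and the replication genes Mcm2 and Top2a rose by 0.87 and 0.63. Of 22 cell cycle genes 4 rose and none fell. Of 13 glycolysis genes 5 rose, among them Ldha by 0.67 (166 ± 30.8 to 263 ± 21.0 CPM). When cells were gated after thinning, Mir155hg (0.78, adjusted p = 0.33), Mcm2 (0.73, adjusted p = 0.083), Top2a (0.34, adjusted p = 0.26) and Ldha (0.49, adjusted p = 0.15) were not called. Some falls did not hold without B cells that carried 2 or more markers of a stromal lineage: Tnfaip2 was -2.10 in all B cells and 0.01 in the rest (adjusted p = 1.0), and Arsb was -2.45 and -0.60 (adjusted p = 0.47). Leaving out naive B or D gave 201 or 186 called genes, and leaving out live draining A, B or C gave 149, 183 or 193.

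Plasma cells, with 14 to 17 cells in each naive library, were tested as an addition after the data were seen and changed at 90 of 3831 genes (2.35%). Ighg1 was at 36740, 25400 and 44660 CPM in live draining plasma cells, and none of 913386 naive plasma cell UMIs came from it. Pooled over the live draining libraries without TMM scaling the level was 42531 CPM. This is 12949-fold higher than a floor of 3 counts over the naive group (3.28 CPM). The floor treats UMIs as independent, while the naive group held only 63 plasma cells, so this fold is no lower bound. Jchain, which joins IgM and IgA, was at 17240 ± 2392 against 40100 ± 14760 CPM and did not pass (adjusted p = 0.13). Of 16 cell cycle genes 3 rose (median 1.46), and of 18 immediate early and dissociation genes 12 fell (median -2.39). Leaving out naive B gave 56 called genes, and leaving out live draining A, B or C gave 47, 48 or 32.

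T cells changed at 308 of 7535 genes (4.09%), 253 higher (3.36%) and 55 lower (0.73%), with glycolysis genes among the rises. Of 13 glycolysis genes 9 rose (median 0.66), with Gapdh at 1154, 1786 and 1620 CPM against 715, 761, 780 and 599 CPM (log2 1.09 ± 0.18; adjusted p = 0.0025) and Pkm higher by 0.86 ± 0.14. Of 30 oxidative phosphorylation genes 16 rose. Gzmb, a granule protease of cytotoxic cells, was at 25.3, 189 and 189 CPM against 6.96, 16.1, 0 and 1.52 CPM (log2 4.31 ± 0.62; adjusted p = 0.0025). Of 12 naive lymphocyte genes 3 fell and none rose, and of 14 activation and inhibitory receptors 3 rose. Of these, Ctla4 was at 188 ± 85.9 against 65.9 ± 17.4 CPM (log2 1.53), and 1.09 without live draining B (adjusted p = 0.072). Tnfrsf4, another of them, was higher by 1.56, by 1.06 without live draining C (adjusted p = 0.13) and by 0.60 without stromally marked cells (adjusted p = 0.37). The naive genes that fell were Lef1, Satb1 and Foxp1. Lef1 lost its call whichever of the 7 libraries was left out, Satb1 without naive B, naive D, live draining B or live draining C, and Foxp1 without naive B or any live draining library.

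The T cell results rested on 223 live draining and 542 naive cells. The count of called genes was 151, 167, 169 and 140 without naive A, B, C and D, 142 without live draining B and 36 without live draining C. CD4 and CD8 cells could not be compared well, because 69.6% of live draining and 67.9% of naive T cells met neither gate, and neither share passed the test.

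Migratory DCs changed at 1097 of 10383 genes (10.6%), 702 higher (6.76%) and 395 lower (3.8%). Of 12 immune checkpoint ligands and modulators 10 rose and none fell (median 0.99). Cd274 was at 182, 188 and 172 CPM against 90.4, 98.9, 94.3 and 93.1 CPM (log2 0.94 ± 0.10; adjusted p = 2.0e-06), Cd200 rose by 1.37 (102 ± 16.3 to 264 ± 51.4 CPM) and the costimulatory ligand Cd86 by 1.06. Without stromally marked cells these were 1.04, 1.56 and 1.17, all called. Cd86 was higher by 0.29 and not called when cells were gated after thinning (adjusted p = 0.19), and with at most 50 cells per library Cd274 (0.82, adjusted p = 0.20) and Cd200 (0.99, adjusted p = 0.18) were not called. Ifitm1 and Ifitm3, antiviral membrane proteins, rose from 17.6 ± 3.98 to 123 ± 17.3 CPM (log2 2.79) and from 99.9 ± 32.2 to 489 ± 161 CPM (log2 2.29).

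Of 15 antiviral genes in migratory DCs 5 rose and 1 fell, with Isg15, a ubiquitin-like modifier, higher by 1.77 (122 ± 24.2 to 416 ± 71.7 CPM). Of 18 GTPases and regulators 5 rose and 3 fell, among the latter Gbp4 (log2 -0.69). MHC class II genes gave 4 higher of 10, with H2-DMb2, a peptide loading chain, at 63.9, 86.2 and 58.7 CPM against 26.5, 22.1, 23.8 and 22.4 CPM (log2 1.55). Of 19 MHC class I genes 4 fell and none rose. The cytokine Mif rose by 1.51 and Ldha by 1.24, within 8 of 15 glycolysis genes higher. Fibrillar matrix genes, which these cells are not known to make, were higher at 12 of 17, and 4 of 6 fibroblastic markers were higher too (226 against 117 CPM summed). The part of free RNA in these was not tested. The count of called genes was 513 and 654 without live draining B and C.

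Conventional DCs changed at 205 of 9223 genes (2.22%), 120 higher (1.3%) and 85 lower (0.922%), with division genes among the falls. Of 22 cell cycle genes 9 fell and none rose (median -0.79). Mki67, a marker of cycling cells, was at 37.1, 51.0 and 51.0 CPM against 108, 113, 99.6 and 113 CPM (log2 -1.23 ± 0.20; adjusted p = 4.3e-04), Top2a fell by 1.59, Ube2c by 1.64 and Prc1 by 1.70. None of these 4 was called when cells were gated after thinning to 1500 UMIs, with Mki67 at -0.70 (adjusted p = 0.43), or with at most 50 cells per library (-1.05, adjusted p = 0.17). Cd209e, a C-type lectin, fell from 146 ± 34.3 to 32.2 ± 6.87 CPM (log2 -2.16). Irf7 rose by 0.82 (113 ± 16.3 to 201 ± 15.9 CPM), within 5 of 19 antiviral genes higher. The chaperone Clu rose by 1.42. Of 12 fibrillar matrix genes 7 were higher, Fn1 among them (log2 2.31), beside 3 of 4 fibroblastic markers. The count was 126, 115 and 131 without naive A, B and D and 65 and 89 without live draining A and C.

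Macrophages changed at 630 of 7263 genes (8.67%), 263 higher (3.62%) and 367 lower (5.05%), with lectin and scavenger receptor genes among the falls. Cd209d, a C-type lectin, was at 57.2, 38.2 and 80.2 CPM against 675, 826, 722 and 238 CPM (log2 -3.41 ± 0.41; adjusted p = 8.9e-06). Cd209b, the SIGN-R1 lectin, fell by 1.73 (3602 ± 376 to 1086 ± 337 CPM) and Marco, a scavenger receptor, by 2.01 (3261 ± 1115 to 814 ± 384 CPM). The lipid-binding family members Bpifb2 and Bpifb3 fell by 4.33 and 3.06, and the stress genes Hspb1 and Dnajb1 by 2.67 and 2.37. The monocyte chemokine Ccl8 fell from 5293 ± 1263 to 1899 ± 97.5 CPM (log2 -1.48), the cytokine Il10 by 1.81 and the transcription factor Klf2 by 1.39.

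Rises in macrophages included Plac8 (40.5 ± 8.81 to 176 ± 67.1 CPM; log2 2.14), the calcium-binding S100a4 (167 ± 66.1 to 499 ± 13.9 CPM; log2 1.59) and the lipid chaperone Fabp5 (log2 1.77). Of 13 glycolysis genes 9 rose and none fell (median 0.74). Of 17 GTPases and regulators 5 fell and none rose, with Gbp3 at 94.3 ± 9.77 against 196 ± 38.2 CPM (log2 -1.07). Cxcl9 ranged from 70.2 to 2620 CPM over the naive macrophages and did not pass (log2 -2.39; adjusted p = 0.078). It passed without naive A (-2.76, adjusted p = 0.034), without naive D (-2.75, adjusted p = 0.025) and without the low-count filter (-2.37). The gate joins macrophages of different places in the node, so fewer cells of a kind and lower expression per cell cannot be told apart. The count of called genes was 410 without naive A and 282 and 405 without live draining A and B.

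Monocytes changed at 40 of 5929 genes (0.675%), 25 higher (0.422%) and 15 lower (0.253%). The chaperones Hspa1a and Hspa1b were the largest falls, the latter at 254, 212 and 246 CPM against 613, 2043, 1488 and 1451 CPM (log2 -2.56 ± 0.25; adjusted p = 1.0e-07). Of 23 immediate early and dissociation genes 8 fell and none rose (median -0.67). Clu (157 ± 22.1 to 518 ± 202 CPM) and Cxcl13 (120 ± 23.9 to 362 ± 30.9 CPM) were higher, at 4.53% and 3.12% of their live draining levels in fibroblastic cells. The part of free RNA in these was not tested, and 13 of the 25 rises were of genes under 10% of their level in another lineage. The 3 live draining monocyte profiles did not overlap the naive ones at 9.93% of all genes tested. The count of called genes was 23 and 22 without live draining A and B.

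The small vascular lineages and mast cells were tested as a further addition after the data were seen. BECs, with 17 to 27 cells per live draining library, changed at 41 of 5803 genes (0.707%), and the count ran from 3 to 111 when a library was left out, where leaving out naive A, B or C gave 15, 21 or 6 and leaving out live draining B or C gave 111 or 3. Btnl9, an endothelial butyrophilin-like gene, fell from 424 ± 103 to 138 ± 24.5 CPM (log2 -1.65; adjusted p = 0.0033). Pericytes, with 14 to 25 cells per live draining library, changed at 215 of 3676 genes (5.85%, 3.51% higher and 2.34% lower), and 114, 112, 85 and 96 were called without naive A, naive B, live draining A and live draining B. Nr4a1, Hspa1a and Hspa1b fell there by 4.27, 4.12 and 3.88, within 12 of 23 immediate early and dissociation genes lower. Mast cells gave 3 of 2267 genes (0.132%).

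Some genes moved across lineages. Over the 8 lineages of the main tests, Hspa1a, Hspa1b and Hsph1, genes of the heat shock response, were lower in all 8. The glycolytic genes Aldoa and Ldha were higher in 7, and Gapdh, Pkm, Pgam1 and the cytokine gene Mif in 6. Ccl20 and Col3a1 were higher in all 8 and Ighg1 in the 7 lineages where it was tested, at levels far below their own source: Ccl20 in live draining B cells, T cells and conventional DCs was 4.30%, 1.46% and 1.35% of its level in LECs. Cxcl9 was higher in 2 lineages and lower in 1. All lineages of a library share its handling, so calls in several lineages are not independent.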

How the data were processed

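Single-cell libraries were made from enzymatically digested, PDPN-selected nodes with a droplet 3′ kit. The authors deposited, per library, a matrix of raw UMI counts per gene and barcode (Cell Ranger 3.0.1, build mm10, per the submitters' processing notes), with no normalization. Cells with 200 to 6000 genes and at most 30% mitochondrial UMIs were kept here, as in the study's methods. The total per library was 21226725 to 36123549 UMIs in kept cells.

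Lineages came from marker gates and not from clustering, and no doublet caller was run beyond setting aside cells with 4 or more markers of both an immune and a stromal lineage. Counts were summed per library and lineage (at least 10 cells) and tested with edgeR 4.0.16 (R 4.3.3; TMM, filterByExpr, quasi-likelihood) over 16 libraries in 5 groups, which share 1 estimate of the spread, with Benjamini-Hochberg adjusted p under 0.05 called. Lineages with at least 20 cells in each of the 7 libraries were tested. Differences between lineages were tested with limma 3.58.1 on within-library log2 CPM differences. Shares were tested with edgeR and with two-sided exact permutation tests. DESeq2 1.42.0 was an alternative. The scripts were tested on simulated data.

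Named genes were, per lineage, the 4 largest rises and 4 largest falls among called genes whose groups did not overlap and whose mean log2 CPM was 5 or more, without marker and antigen receptor genes, up to 4 members per list by smallest p, and genes the study names. Members, markers and lists were chosen with earlier results of these data known, so the lists are not independent evidence. Genes named in plasma cells, BECs, pericytes and subsets, and examples beyond the rule, were chosen after their values were seen. Replicate letters were taken from the titles; same-letter libraries did not deviate together, and no pairing was used. Genes were placed with the annotation of GRCm38, and promoter sequences were credited to RefSeq. Some genes that the naming rule selects are not reported here.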

Additional observations from a re-analysis of the deposited data

Results flagged for a closer look

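Among 251 groups of 4 naive libraries, 15 held a library that stood far from the other 3 (5.98%), where chance gives about 1 in 20. By share, naive A held 2.91% BECs and 0.291% plasma cells of its kept cells, and naive D 41.0% cLECs of its LECs. In stromal cells, naive B stood low for Ccl21a in LECs (58.4 CPM) and for Hspa1b in fibroblastic cells (958 CPM), naive D stood high for Ccl11 in fibroblastic cells (294 CPM), and naive C stood high for Ccl20 in MedLECs (39.6 CPM). In lymphocytes, naive B stood high for Ccl20 in B cells (48.7 CPM) and for Pkm in T cells (355 CPM) and low for Lyz1 in T cells (112 CPM), and naive C stood high for Birc5 in plasma cells (41.0 CPM). In myeloid cells, naive D stood high for Ccl20 (64.8 CPM) and low for Ldha (47.9 CPM) in migratory DCs, naive B stood high for Ccl5 there (10610 CPM), and naive C stood high for Sirpb1c in macrophages (20.3 CPM).

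The change of Cxcl9 differed between lineages of the same libraries, with a difference of -7.11 on the log2 scale, fibroblastic cells minus LECs (limma, adjusted p = 3.2e-06). All 3 live draining libraries were above the naive ones in LECs and below them in fibroblastic cells. These values are of all gated cells. Without immune-marked cells Cxcl9 was higher by 3.85 in LECs and by 0.09, without a call, in fibroblastic cells.

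Barcodes left out for having over 6000 genes were dividing in 41.1% of 833 live draining barcodes and 19.4% of 304 naive ones. Among live draining barcodes over that limit, 372 were gated as fibroblastic and 240 as LEC.

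The epithelial gate held 5 cells, all in live draining B, and none of the 14577 naive cells. With 5 cells in 1 library, no test was made.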

How the results depend on the processing

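Under the other settings, 194 share values kept their direction and side of the threshold, 8 passed it newly and 2 no longer passed. Of the named gene values, 1766 kept both, 202 no longer passed, 4 passed newly and 14 changed sign. The counts of called genes stayed within 1.5 times in 80 cases and moved further in 52. With only the 7 libraries fitted, BECs gave 22 and mast cells 0 called genes. DESeq2 called 69 genes in BECs, 241 in B cells, 98 in conventional DCs, 19 in monocytes and 20 in mast cells. RLE scaling gave 1 in mast cells. At most 10% mitochondrial UMIs gave 142 in B cells, 162 in T cells, 132 in conventional DCs, 412 in macrophages and 0 in mast cells. With at most 50 cells per library, fewer cells left 148 in fibroblastic cells, 819 in LECs, 23 in BECs, 2 in B cells, 156 in T cells, 105 in conventional DCs, 64 in migratory DCs, 182 in macrophages, 11 in monocytes and 1 in mast cells. There Irf7 (-0.070), Igtp (0.049) and Cd200 (-0.44) in fibroblastic cells and Mif (-0.0047) and Arsb (0.18) in B cells changed sign. A gate of 3 markers gave 194 in T cells, 76 in conventional DCs, 558 in migratory DCs and 1 in mast cells, and could not be fitted in pericytes. Gating on cells thinned to 1500 UMIs gave 1377 in pericytes, 82 in B cells, 59 in plasma cells, 49 in conventional DCs, 4833 in migratory DCs and 25 in monocytes, turned C3 in conventional DCs (-0.016), moved the shares of LECs (-0.16) and unassigned cells (0.16) past the threshold, and could not be fitted in mast cells. Without the low-count filter, 293 were called in BECs, 729 in B cells, 278 in plasma cells, 336 in conventional DCs, 103 in monocytes and 59 in mast cells. TMM over lineages called the plasmacytoid DC share (-1.63), as did limma on logit shares (-1.34), which lost that of TRCs (0.31). The cause of these changes was not tested.

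Without cells carrying markers of the other compartment, 3348 genes were called in fibroblastic cells, 2325 in LECs, 4 in BECs, 231 in B cells, 142 in T cells, 123 in conventional DCs, 25 in monocytes and 6 in mast cells. The fibroblastic share was no longer called (0.12), while those of LECs (-0.19), mixed (0.43) and unassigned cells (0.17) passed. Signs changed for Cxcl9 in fibroblastic cells (0.089), for Cd74 (-0.34), Cxcl16 (-0.11), Vcam1 (-0.23), Icam1 (-0.14), Mmp9 (-0.90) and Cd274 (-0.27) in LECs, and for Tnfaip2 in B cells (0.014). Mmp9 is a neutrophil gate gene, so its value there depends on the exclusion itself.

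The replicate letters did not pair the libraries. A replicate block gave 103 called genes in pericytes, 218 in B cells, 163 in T cells, 718 in migratory DCs and 0 in mast cells, and called the share of mixed cells (0.43).

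When each library was left out in turn, called genes ranged from 3 to 111 in BECs, 85 to 229 in pericytes, 149 to 421 in B cells, 32 to 118 in plasma cells, 36 to 381 in T cells, 65 to 202 in conventional DCs, 513 to 1117 in migratory DCs, 282 to 630 in macrophages, 22 to 45 in monocytes, 0 to 9 in mast cells, 1182 to 1511 in TRCs, 1057 to 1429 in MRCs, 768 to 1062 in MedRCs and 17 to 45 in cortical LECs. The log2 difference of the plasmacytoid DC share ranged from -2.03 to -1.34 and passed without naive A. Depth limits the lineages with few cells: a low count there does not show that few genes changed.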
